A study of Oryza sativa with 12 samples.

Results

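Invertases split sucrose irreversibly into glucose and fructose. The genes described here are 4 rice invertase genes, the cell wall invertase genes CIN2 (also GIF1, LOC4335790), CIN3 (LOC4335789) and CIN5 (LOC4337313) and the cytosolic invertase gene CINV1 (also OsCYT-INV1, LOC4329626). They were chosen by the identifier of their probe sets, 4 of 36643 in the table, with earlier results of these data known. Each gene has 1 probe set. The names come from the platform's gene annotation and the RefSeq gene table.

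Cell wall invertases are secreted and act in the apoplast, where they feed hexose carriers of importing tissues such as the growing seed. Cytosolic invertases belong to the unrelated neutral and alkaline family and work on sucrose already inside the cell. CIN2 is known in rice as GIF1, a gene needed for normal grain filling. CINV1 is known in rice for its part in root cell development.

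Total RNA of embryos taken from seeds of the cultivar Dongjin was hybridised to 12 Affymetrix arrays, 2 for each of 6 conditions. All embryos spent 24 h in the dark at 28 °C with 10 mM calcium chloride. GlcAC and MtlAC embryos had 60 mM glucose or 60 mM mannitol, a sugar alcohol used at the same molar strength. AC is not spelled out in the labels and is read here as the protocol's anaerobic incubation, in which embryos were submerged in nitrogen-flushed medium. GlcDNP and MtlDNP embryos germinated in air with the same sugars and 0.08 mM 2,4-dinitrophenol (DNP), an uncoupler of mitochondrial respiration. Glc and Mtl embryos germinated in air with glucose or mannitol alone. The design text calls the replicates technical, so the p-values below measure the spread between arrays, which may hold the same RNA.

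Of 4 embryo markers, the oleosin gene OLE18 lay at or above the 92.8th percentile of probe sets on all arrays and EMP1 at or above the 90.3rd. RAB21 ranged over the 46.6th to 91.1st percentile, and OSH1 over the 40.9th to 56.7th. The green shoot markers RBCS, RBCS1, CAB1R and CAB2R stayed at or below the 55.8th percentile. Summed linear levels of 4 embryo markers were 314 to 326 in GlcAC, 457 to 530 in MtlAC, 754 to 794 in GlcDNP, 773 to 776 in MtlDNP, 169 to 195 in Glc and 173 to 195 in Mtl. The sums, carried mostly by OLE18 and EMP1, were highest with DNP on both sugars, the conditions in which CINV1 was lowest and CIN3 highest. OSH1 did not follow them, at 3.03 in GlcDNP and 3.29 in MtlDNP, against 3.43 in Glc and 3.11 in Mtl (mean log2 values). Summed linear levels of 5 endosperm markers were 25.2 to 29.2 in GlcAC, 55.7 to 57.6 in MtlAC, 36.7 to 42.0 in GlcDNP, 38.5 to 48.6 in MtlDNP, 20.5 to 23.4 in Glc and 31.8 to 36.7 in Mtl. The endosperm sum was highest in MtlAC and lowest in Glc, where CIN2 averaged 2.97 and 3.02 (log2 values). In air without DNP the sum was higher in Mtl than in Glc, and so was CIN2, which averaged 5.04 in Mtl. GLUA-1 averaged 3.95 in Mtl and 2.40 in Glc, while waxy did not follow, at 1.28 and 1.31. The part of these markers in the results below was not tested. The alcohol dehydrogenase gene Adh2, known for its induction by low oxygen, averaged 3.98 in GlcAC and 3.43 in MtlAC, against 2.45 in Glc and 2.21 in Mtl (log2 values). PDC2, the other low oxygen check, averaged 8.67 and 8.32, against 7.99 and 6.92. RAmy3D, the check on sugar starvation, averaged 3.30 in Glc and 7.82 in Mtl. It stood at 5.57 in GlcDNP, 5.47 in MtlDNP, 6.57 in GlcAC and 8.44 in MtlAC. With DNP the values of 1 array spread less (SD 1.64 to 1.67) than in air without it (1.81 to 1.86), and so did those of MtlAC (1.67 to 1.68).

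Levels are the deposited log2 values, in which a difference of 1 is a fold of 2. They are comparable between arrays for 1 gene but not between genes. A difference was called when the limma adjusted p over all probe sets was under 0.05 and the log2 difference was at least 1 in size. Fewer cells expressing a gene and less RNA per cell cannot be told apart in whole embryos.

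The 4 genes followed different patterns. CIN2 was high in Mtl, with means of 2.80 to 3.42 in the other conditions. CINV1 was also highest in Mtl and was lowest with DNP. CIN3 was highest with DNP, but no difference of it met both criteria. No difference of CIN5 was called. Of 44 differences, 4 genes in 11 comparisons, 8 were called, and the share of all probe sets called is given with each comparison below. The stricter treat test for differences beyond 1 kept 3 of the 8, CIN2 and CINV1 for DNP on mannitol and CIN2 for AC on mannitol.

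**Figure D1:**
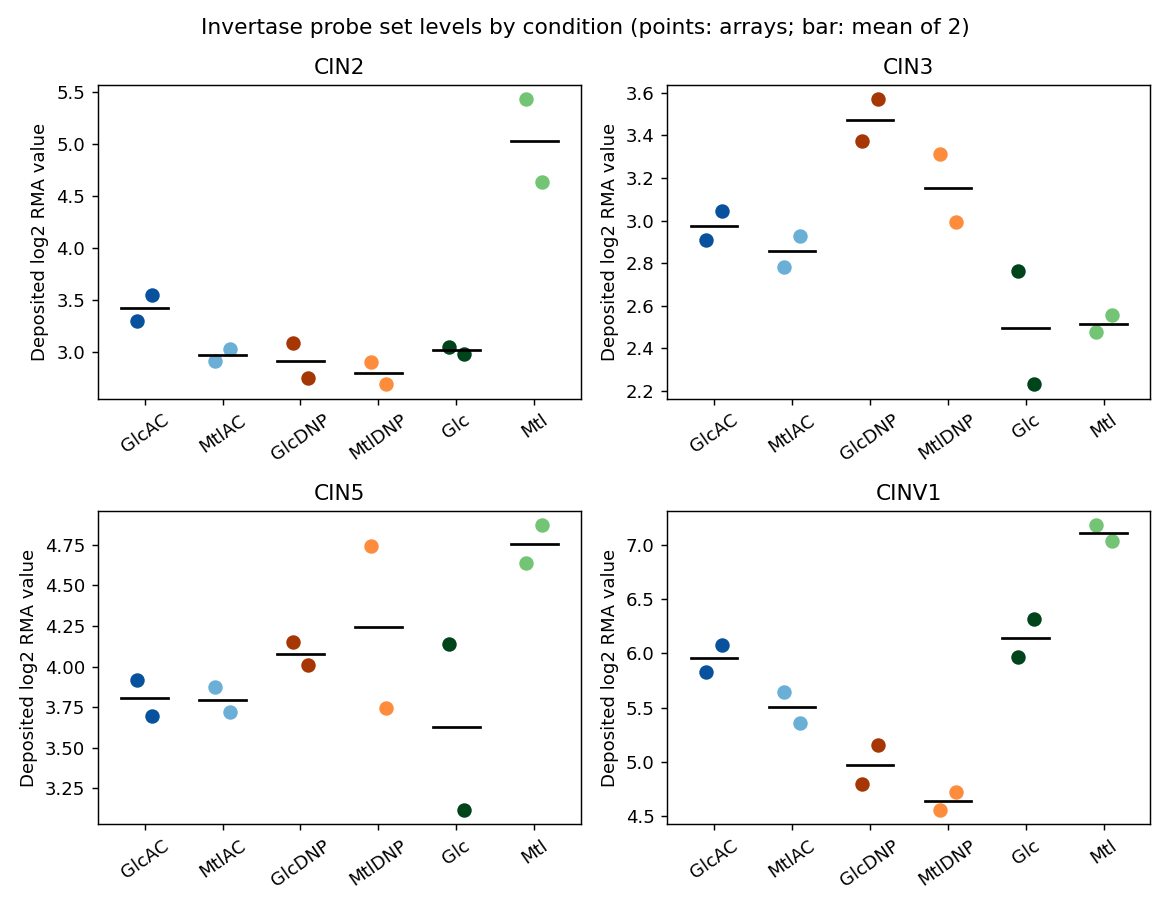
Deposited log2 RMA values (y axis) of CIN2, CIN3, CIN5 and CINV1 in the 6 conditions (x axis); points are the 2 arrays of a condition and the bar is their mean. Both Mtl arrays of CIN2 lie above all its other arrays, and the CINV1 arrays are lowest with DNP; the y axes differ between panels and do not start at 0.

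CIN2 stood at 3.30 and 3.55 in GlcAC, 2.92 and 3.03 in MtlAC, 3.08 and 2.75 in GlcDNP and 2.91 and 2.69 in MtlDNP. In air without DNP it stood at 3.05 and 2.98 in Glc and at 5.44 and 4.64 in Mtl. The 2 Mtl arrays lay above the other 10, and they also lay farthest apart of any condition (SD 0.56). Outside Mtl the gene ranked between the 34.6th and 57.2nd percentile of its array, and in Mtl at the 78.0th and 86.9th. Its level above background outside Mtl is not shown, so the folds below are those of the measured values and may understate the change of the gene. In the order of condition means, GlcAC followed Mtl, and its arrays overlapped with neither Mtl above nor Glc below. Glc, MtlAC, GlcDNP and MtlDNP came next, and the arrays of each neighbouring pair among these overlapped.

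The labels ask how embryos respond to sugar, and in air CIN2 averaged 3.02 ± 0.05 in Glc and 5.04 ± 0.56 in Mtl (SD, n = 2 arrays each). It was 4.05-fold lower with glucose, a log2 difference of -2.02 ± 0.26 (SE; limma adjusted p = 0.00202). It was the 1 of the 4 genes called in this comparison, in which 1.53% of all probe sets were called lower and 0.469% higher. With DNP the same sugar difference of CIN2 was 0.12, with a 95% interval of -0.45 to 0.69. Under AC it was 0.45, with an interval of -0.12 to 1.02. For sugar with DNP, 0 of the 4 genes were called by limma, against 0.0136% of all probe sets, and under AC 0 of the 4, against 2.66%. None of the 4 had an unadjusted p under 0.05 with DNP, and under AC no interval of the 4 genes excluded 0 either. Of all 36643 probe sets, 2622 had an unadjusted p under 0.05 with DNP and 6177 under AC.

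The test of these sugar differences against each other called CIN2 for both environments. The glucose-over-mannitol difference was higher with DNP than in air by 2.14 ± 0.36 (SE; limma adjusted p = 0.0189). It was higher under AC than in air by 2.47 ± 0.36 (limma adjusted p = 0.0145). Of the 4 genes CIN2 was the 1 called in each, where 1.01% of all probe sets were called higher in the DNP test and 1.01% in the AC test. Both tests subtract the same Glc and Mtl arrays and are not independent. The DNP call was lost with any of 6 arrays left out, namely GlcDNP 1, either MtlDNP, either Glc or Mtl 1, with a log2 difference of 1.74 to 2.53 over all 12 such fits. It was also lost with the 8 compared arrays fitted alone (limma adjusted p = 0.0672). The AC call was lost without either GlcAC array, MtlAC 1 or either Glc array, with a difference of 2.07 to 2.87 over all 12.

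Uncoupling and AC were each compared with air on the same sugar. On mannitol CIN2 averaged 2.80 ± 0.15 in MtlDNP and 5.04 ± 0.56 in Mtl (SD, n = 2 arrays each), 4.72-fold lower with DNP (log2 difference -2.24 ± 0.26, limma adjusted p = 1.89e-04). It averaged 2.97 ± 0.08 in MtlAC against the same Mtl arrays, 4.19-fold lower under AC (-2.07 ± 0.26, limma adjusted p = 4.22e-04). On glucose its difference was -0.10 with DNP (95% interval -0.67 to 0.47) and 0.41 under AC (-0.16 to 0.98). The 3 called differences of CIN2 between conditions all rest on the Mtl arrays as the high side, and all held with Mtl 1 or Mtl 2 left out. Without Mtl 1, the higher array, they were -1.62 for sugar in air, -1.84 for DNP on mannitol and -1.67 for AC on mannitol.

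CINV1 stood at 5.83 and 6.08 in GlcAC, 5.65 and 5.36 in MtlAC, 4.79 and 5.15 in GlcDNP and 4.55 and 4.72 in MtlDNP. In air without DNP it stood at 5.96 and 6.31 in Glc and at 7.19 and 7.04 in Mtl. Its arrays ranked at or above the 78.3rd percentile everywhere. In the order of means, Mtl was followed by Glc, GlcAC, MtlAC, GlcDNP and MtlDNP, and of these neighbours the arrays of Glc and GlcAC overlapped.

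CINV1 fell with DNP on both sugars. On mannitol it averaged 4.64 ± 0.12 in MtlDNP and 7.11 ± 0.11 in Mtl (SD, n = 2 arrays each), 5.57-fold lower (log2 difference -2.48 ± 0.21, limma adjusted p = 3.22e-05). On glucose it averaged 4.97 ± 0.26 in GlcDNP and 6.14 ± 0.25 in Glc, 2.25-fold lower (-1.17 ± 0.21, limma adjusted p = 0.00292). CIN2 and CINV1 were the 2 of 4 genes called lower on mannitol, and CINV1 the 1 on glucose. Among all probe sets 10.4% were called lower with DNP on mannitol and 9.28% on glucose. After quantile re-normalization, which gives all arrays the same spread, the differences were -2.15 on mannitol and -0.91 on glucose. The glucose difference then missed the size criterion. It also missed it without GlcDNP 1 (-0.99) and without Glc 2 (-0.99).

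Under AC CINV1 fell on mannitol, with 5.50 ± 0.21 in MtlAC and 7.11 ± 0.11 in Mtl (SD, n = 2 arrays each). It was 3.05-fold lower (log2 difference -1.61 ± 0.21, limma adjusted p = 5.66e-04), and after quantile re-normalization the difference was -1.24. On glucose it averaged 5.96 ± 0.18 in GlcAC and 6.14 ± 0.25 in Glc, a difference of -0.18 with a 95% interval of -0.65 to 0.28. With CIN2 it made 2 of 4 genes called lower under AC on mannitol, where 8.65% of all probe sets were called lower. On glucose 0 of the 4 genes were called by limma under AC, against 5.25% of all probe sets, and CIN3 was the 1 with an unadjusted p under 0.05. Among all probe sets 7938 of 36643 had such a p there, so 1 of 4 is near the background share.

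The sugar difference of CINV1 in air lay just under the size criterion. The gene averaged 6.14 ± 0.25 in Glc and 7.11 ± 0.11 in Mtl (SD, n = 2 arrays each), a difference of -0.97 ± 0.21 (limma adjusted p = 0.0409), and the arrays did not overlap. With DNP the sugar difference was 0.34 (95% interval -0.13 to 0.80) and under AC 0.45 (-0.01 to 0.92). The difference between sugar responses was 1.31 ± 0.30 for DNP against air (limma adjusted p = 0.0862) and 1.43 ± 0.30 for AC against air (limma adjusted p = 0.0581). Neither was called. With trend and robust estimation both passed (limma adjusted p = 0.0437 and limma adjusted p = 0.0252), and without dim probes the AC test passed (limma adjusted p = 0.0356).

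AC and DNP were also set against each other. CINV1 averaged 5.96 ± 0.18 in GlcAC and 4.97 ± 0.26 in GlcDNP (SD, n = 2 arrays each), a difference of 0.98 ± 0.21 that missed the size criterion (limma adjusted p = 0.0175). It averaged 5.50 ± 0.21 in MtlAC and 4.64 ± 0.12 in MtlDNP, a difference of 0.87 ± 0.21 (limma adjusted p = 0.0626). For CIN2 these differences were 0.51 on glucose and 0.17 on mannitol. Of the 4 genes, 0 were called by limma on either sugar, against 5.26% of all probe sets on glucose and 2.05% on mannitol. At an unadjusted p under 0.05, CINV1 and CIN3 passed on glucose and CINV1 on mannitol. Over all probe sets 8248 of 36643 passed on glucose and 5547 on mannitol.

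**Figure D2:**
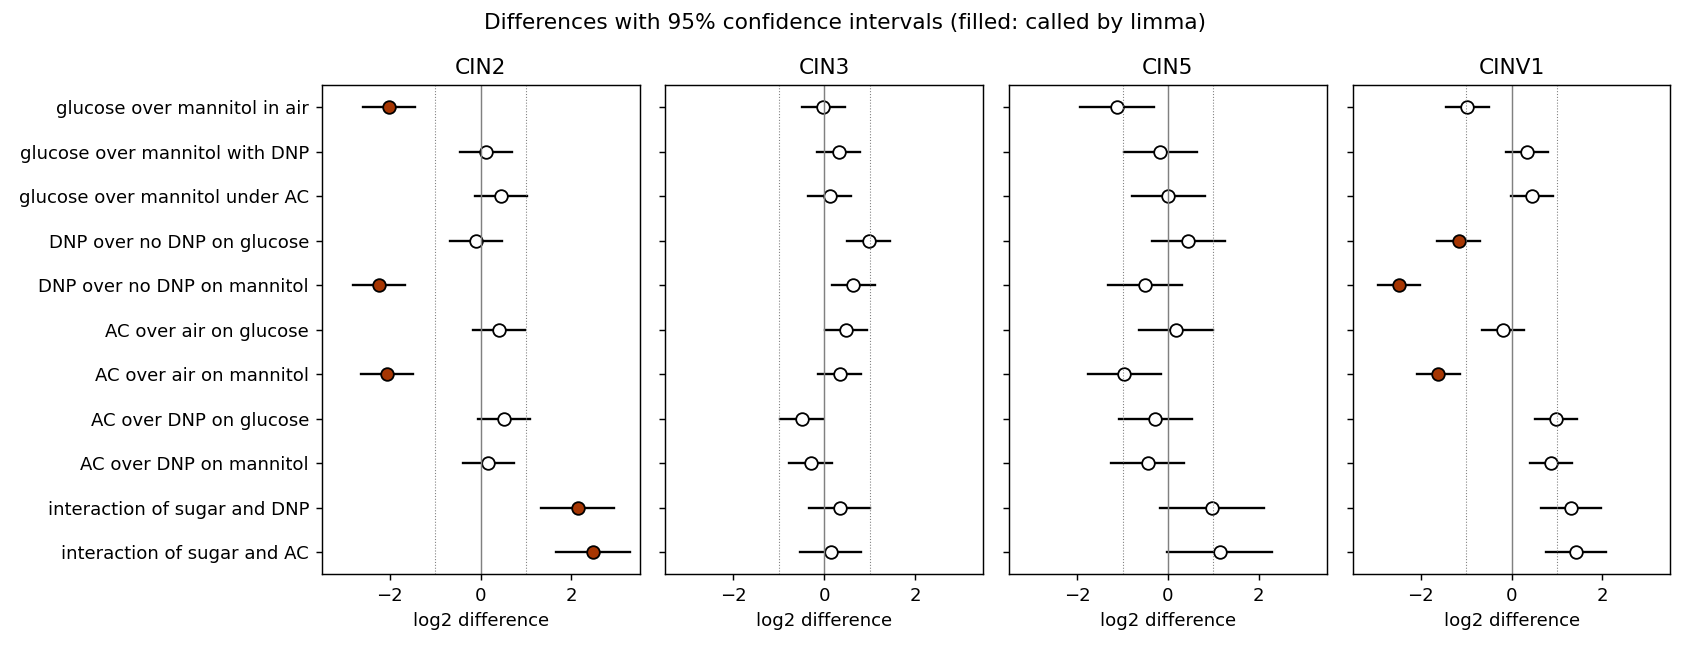
Log2 differences (x axis) of the 4 invertase genes in 11 comparisons (rows), with 95% confidence intervals from limma over 12 arrays; filled points were called, and dotted lines mark a log2 difference of 1 in either direction. The 8 filled points are 5 of CIN2 and 3 of CINV1, and the intervals of CIN5 are the widest.

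CIN3 stood at 2.91 and 3.04 in GlcAC, 2.78 and 2.93 in MtlAC, 3.37 and 3.57 in GlcDNP and 3.31 and 2.99 in MtlDNP. In air without DNP it stood at 2.76 and 2.23 in Glc and at 2.47 and 2.56 in Mtl. Both DNP conditions lay above both air conditions with no overlap of arrays, and AC lay between them with some overlap with MtlDNP. The gene ranked between the 27.1st and 56.7th percentile of its arrays, so its level above background is not shown.

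CIN3 averaged 3.47 ± 0.14 in GlcDNP and 2.50 ± 0.38 in Glc (SD, n = 2 arrays each), a difference of 0.97 ± 0.21 that missed the size criterion (limma adjusted p = 0.00825). It passed without GlcDNP 1 (1.07) or without Glc 1 (1.24). On mannitol it averaged 3.15 ± 0.23 in MtlDNP and 2.52 ± 0.06 in Mtl, a difference of 0.64 ± 0.21 (limma adjusted p = 0.0441). In these comparisons 4.67% of all probe sets were called higher on glucose and 5.91% on mannitol. The sugar difference of CIN3 in air was -0.02, with a 95% interval of -0.49 to 0.45. The intervals of its sugar differences were -0.15 to 0.79 with DNP and -0.35 to 0.59 under AC. They describe the measured values, in which a change of a gene near background can be compressed.

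CIN3 and CIN2 are next to each other on chromosome 4 of the RefSeq assembly GCF_034140825.1, with 0 annotated genes between their starts. Their values moved apart with DNP on mannitol, where CIN2 differed by -2.24 and CIN3 by 0.64. The difference between these neighbours was not tested. Whether probes of one gene also bind transcripts of the other was not tested either.

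CIN5 stood at 3.92 and 3.69 in GlcAC, 3.87 and 3.72 in MtlAC, 4.15 and 4.01 in GlcDNP and 4.74 and 3.75 in MtlDNP. In air without DNP it stood at 4.14 and 3.12 in Glc and at 4.64 and 4.87 in Mtl. The 2 arrays of MtlDNP (SD 0.70) and of Glc (SD 0.72) lay far apart. Mtl had the highest mean, but its arrays overlapped with those of MtlDNP.

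CIN5 averaged 3.63 ± 0.72 in Glc and 4.76 ± 0.16 in Mtl (SD, n = 2 arrays each), a difference of -1.13 ± 0.36 that was not called (limma adjusted p = 0.186). This value rests on Glc 2, without which it was -0.62, while without Glc 1 it was -1.64. Under AC on mannitol it averaged 3.80 ± 0.11 in MtlAC against 4.76 ± 0.16 in Mtl, a difference of -0.96 ± 0.36 (limma adjusted p = 0.0807). With DNP on mannitol the difference was -0.51 (95% interval -1.32 to 0.30). The wide intervals of CIN5 do not show that it was level across conditions.

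CIN2, CIN5 and CINV1 had their highest mean in Mtl, as did 16.6% of all probe sets and 22.3% of the 12676 whose condition means spanned at least 1. CIN2 and CINV1 both had their highest mean in Mtl and their lowest in MtlDNP, as did 5.17% of all probe sets. The pattern was not particular to them among invertase genes. The cell wall invertase gene CIN1 had it too, at 4.10 in Mtl and 2.90 in MtlDNP. This pattern was read from the same values, so its share is a description and no test. For CIN2 the arrays of MtlDNP overlapped with those of GlcDNP, so its lowest place is not settled. The condition means of CIN2 and CINV1 spanned 2.24 and 2.48, wider than in 94.3% and 95.8% of probe sets. CIN3 and CIN5 spanned 0.97 and 1.13, at the 63.8th and 73.0th percentile. Over the 12 arrays, which share 6 conditions, Pearson's r was 0.82 between CIN2 and CINV1 (Spearman's rho 0.76) and -0.78 between CIN3 and CINV1 (rho -0.79). For CIN5 and CINV1 it was 0.18 (rho -0.01).

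The named genes most like each invertase gene were taken as the 3 with the highest Pearson's r over the 12 arrays, among 976 named probe sets whose condition means spanned at least 1. For CIN2 they were CSLA9 of the cellulose synthase-like family (0.95), the potassium transporter gene HAK10 (0.95) and OsNrx1-1 (0.94). HAK10 averaged 4.37 in Glc and 6.80 in Mtl, and was lowest in MtlDNP at 3.31. For CINV1 they were LSD1 (0.98), the ubiquitin ligase gene XB3 (0.98) and the 14-3-3 protein gene GF14B (0.98). GF14B averaged 4.99 in MtlDNP and 8.04 in Mtl.

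For CIN3 the most similar were the polyubiquitin gene rubi3 (0.93), the small heat shock gene HSP18.9 (0.91) and CBF1 (0.91). Of these rubi3 averaged 9.39 in GlcDNP and 9.26 in MtlDNP, against 8.35 in Glc and 8.43 in Mtl. For CIN5 they were the metallothionein gene MT1B (0.91), RCABP69 (0.83) and a chitinase gene (LOC4338718, 0.79), a looser likeness than for the other 3 genes. MT1B averaged 1.85 in Glc and 3.32 in Mtl.

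**Figure D3:**
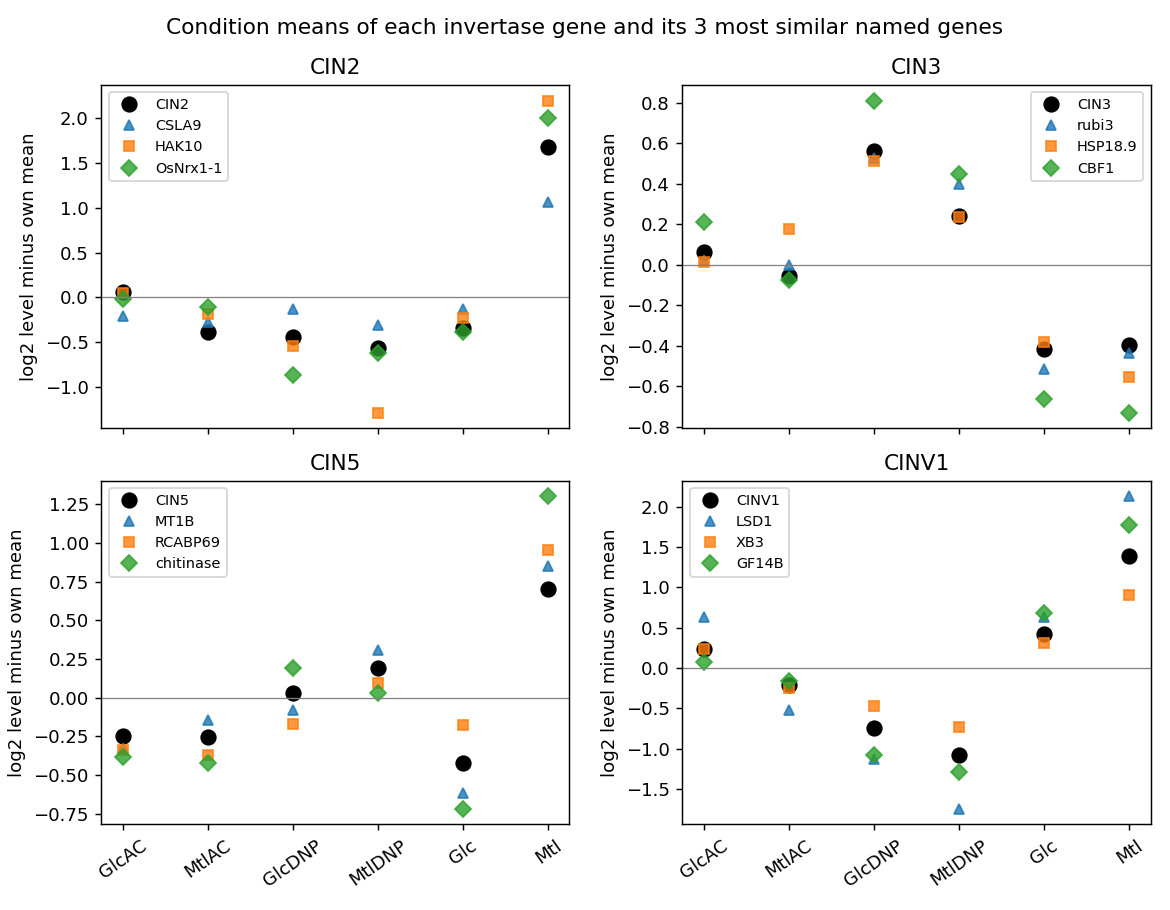
Condition means of each invertase gene and its 3 most similar named genes as log2 level minus the gene's own mean over the 6 conditions (y axis), by condition (x axis). The genes beside CIN2 stand out in Mtl, those beside CINV1 are lowest in MtlDNP and those beside CIN3 are highest in GlcDNP.

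The other 6 invertase genes that the tables name are the cell wall genes CIN1, CIN4, CIN6 and CIN7 and the neutral or alkaline genes NIN1 and NIN3. Of these, 2 were called in any of the 11 comparisons, both for DNP on mannitol, 1 higher and 1 lower, where 5.91% of all probe sets were called higher and 10.4% lower. CIN6 rose by 1.02 ± 0.20 (SE; limma adjusted p = 0.00383), at 4.58 ± 0.26 in MtlDNP and 3.56 ± 0.12 in Mtl (SD, n = 2 arrays each). Its difference lay just over the size criterion, and no alternative processing was checked for CIN6 or the other genes outside the 4. CIN1 fell, at 2.90 ± 0.11 in MtlDNP and 4.10 ± 0.03 in Mtl (-1.20 ± 0.15, limma adjusted p = 3.44e-04).

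CIN6 is the neighbour of CIN5 on the same assembly, with 0 annotated genes between their starts. With DNP on mannitol CIN6 was called higher while CIN5 stood at -0.51, a difference between the neighbours that was not tested. For sugar in air CIN6 differed by 0.04 and CIN5 by -1.13. CIN4 stayed at or below the 17.7th percentile of all arrays and CIN7 at or below the 26.9th. The NIN3 difference reached at most about 0.16 in size, under AC on mannitol. NIN1 went the other way from CINV1 with DNP, but was not called. It averaged 3.77 in GlcDNP and 3.02 in Glc, and 3.44 in MtlDNP and 3.03 in Mtl. Over all 7 cell wall genes with a probe set, the median difference with DNP on mannitol was -0.03, against 0.15 over all probe sets. Of the 7, 1 was called higher and 2 lower, against 5.91% and 10.4% of all probe sets.

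**Figure D4:**
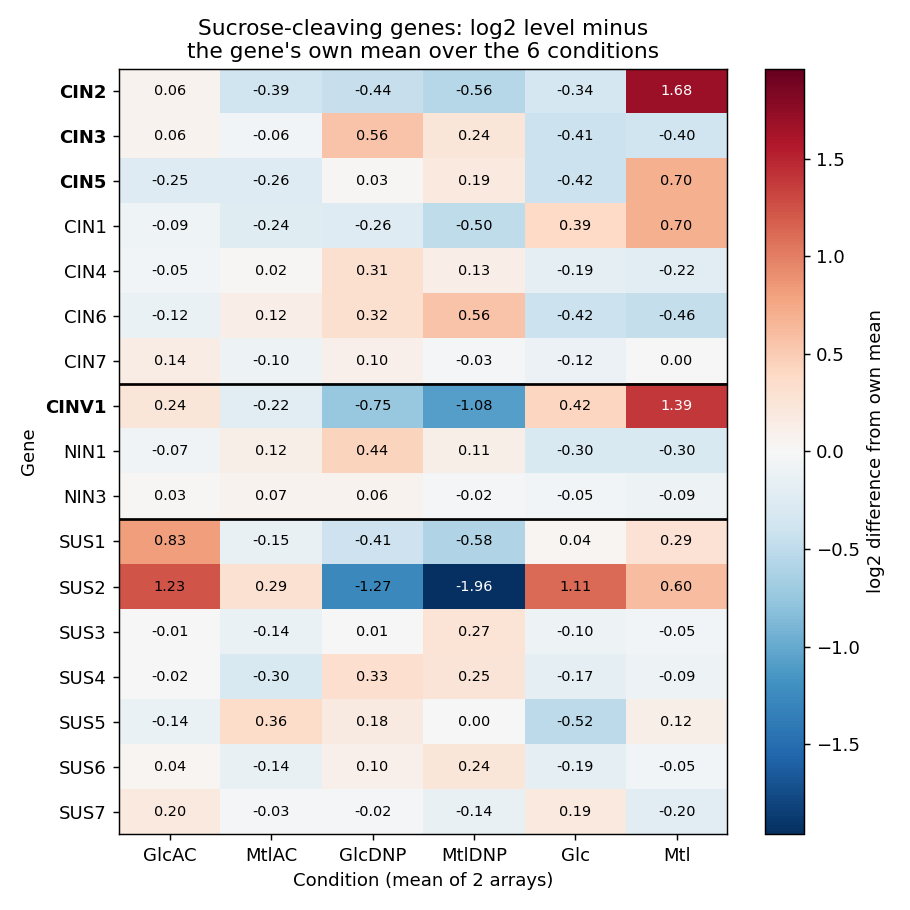
Condition means of 7 cell wall invertase genes, 3 neutral or alkaline invertase genes and 7 sucrose synthase genes (rows, separated by lines; the 4 genes of this report in bold) as log2 level minus the gene's own mean over the 6 conditions (columns). CIN2 and CINV1 are highest in Mtl, at 1.68 and 1.39 above their own means, and SUS2 is lowest in MtlDNP, at -1.96.

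Sucrose can also be split by sucrose synthase, and the hexoses released need carriers and kinases. With DNP on mannitol, 0 of 7 sucrose synthase genes were called higher and 1 lower (median 0.06), against 5.91% and 10.4% of all probe sets. The lower gene was SUS2, by -2.56 ± 0.18 (limma adjusted p = 1.07e-05). Under AC on mannitol 0 of the 7 were called by limma and 1, SUS1, had an unadjusted p under 0.05 (-0.44). In that comparison 12.2% of all probe sets were called, and 14055 of 36643 had an unadjusted p under 0.05. Sucrose synthesis genes had 3 of 7 lower with DNP on mannitol and 3 of 7 under AC on mannitol, with 0 higher, against 10.4% and 8.65% of all probe sets called lower. These were the sucrose phosphate synthase genes SPS2, SPS4F and SPS1, at -1.93, -1.20 and -1.08 with DNP. Under AC SPS2 was 2.83-fold lower, and SPS4F and SPS1 differed by -1.29 and -1.10. The median of the list was -0.73 with DNP and -0.84 under AC, against 0.15 and 0.10 over all probe sets.

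Of 11 hexokinase and fructokinase genes, 1 was higher and 3 were lower with DNP on mannitol (median -0.53), against 5.91% and 10.4% of all probe sets. HXK1 differed by 1.32, HXK6 (also HXK7) by -1.64, FRK2 by -1.52 and HXK3 (also HXK2) by -1.23. For sugar in air HXK6 was the 1 called of the 11, at -2.45 ± 0.23 (limma adjusted p = 3.79e-04), in the same direction as CIN2. There 1.53% of all probe sets were called lower and 0.469% higher. Unlike CIN2, HXK6 was called higher under AC on mannitol (1.51). In that comparison 1 of the 11 was called higher and 2 lower. Among all probe sets 12.2% were called in either direction and 8.65% lower. The 2 lower genes, in the direction of CIN2, were FRK2 and HXK3 (also HXK2). FRK2 averaged 2.77 in MtlAC and 4.30 in Mtl, and HXK3 4.12 and 5.33.

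Of 20 sugar carrier genes, 2 were higher and 2 lower with DNP on mannitol (median 0.44), against 5.91% and 10.4% of all probe sets, so the lower count is at the background share. SWEET4 differed by -1.52, the monosaccharide carrier gene MST3 by -1.31, SWEET12 by 1.16 and the sucrose carrier gene SUT5 by 1.12. SWEET4 was the 1 carrier gene called for sugar in air (-1.16 ± 0.19, limma adjusted p = 0.0114), at 6.67 ± 0.02 in Glc and 7.82 ± 0.22 in Mtl (SD, n = 2 arrays each). Among all probe sets 1.53% were called lower for sugar in air and 0.469% higher. SWEET1B had a larger difference that was not called (-1.71 ± 0.39, limma adjusted p = 0.0574), at 4.28 ± 0.29 in Glc and 5.99 ± 1.01 in Mtl. Under AC on mannitol 0 of the 20 were called by limma and 5 had an unadjusted p under 0.05, both smaller shares than over all probe sets.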

How the data were processed

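The submitters deposited 1 table of log2 RMA values for 36643 probe sets and 12 arrays. Per the labels, the values come from Expression Console at the core level, and the submitters' processing notes name Affymetrix Power Tools; the sources used here give no version and no genome build. The base of the logarithm was taken as 2 from the range, -0.49 to 13.12. RMA normalizes probe intensities across arrays, so levels are relative, but the deposited arrays still differ in spread (SD 1.64 to 1.86) and median (3.23 to 3.31). The number of arrays limits the precision.

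All probe sets were fitted with limma 3.58.1 in R 4.3.3, with 1 coefficient per condition, 6 residual degrees of freedom, 3.82 from the prior, and p-values adjusted by Benjamini-Hochberg. The fit was tested on simulated data. The genes and lists were chosen with earlier results of these data known. Besides the 4 genes, the text names the 3 most similar named genes of each and up to 4 members of a list, those with the largest differences in the comparison described. In further comparisons of a list the called members are named. All invertase genes are named. CIN4, CIN7, NIN1, NIN3 and the pattern of CIN1 were described after their values were seen. Lists were matched by symbol and synonym; sucrose synthesis left out 2 signal peptide peptidase genes that share the symbols SPP1 and SPP2. Vacuolar invertases and invertase inhibitors were not analysed here. Over all probe sets, replicate numbers showed no clear pairing of the arrays: deviations from condition means correlated at -0.02 to 0.09 over 15 pairs of conditions. This does not settle pairing for a single gene. With the replicate number as a block, the SE of CIN5 for sugar in air was 0.31 instead of 0.36, and it was still not called. Alternatives were quantile re-normalization, the treat test, trend and robust estimation, a filter on dim probe sets, the compared arrays alone, a replicate block and each array left out.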

Additional observations from a re-analysis of the deposited data

Results flagged for a closer look

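The sugar difference of CIN2 was called different between environments by a test of the difference itself. It was higher with DNP than in air by 2.14 and higher under AC than in air by 2.47, each the difference between glucose-over-mannitol differences. In both cases the Mtl arrays, at 5.44 and 4.64, were the high values. Both calls were lost with the treat test and with some single arrays left out. The DNP call was also lost with the compared arrays fitted alone.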

How the results depend on the processing

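For the 4 genes in 11 comparisons, 8 of 44 differences were called, and 18 alternatives gave 792 values, of which 755 kept their direction and call. None of the 11 that turned sign was a called difference. Many alternatives could not turn a sign. The block, treat, trend and robust estimation, the dim filter and the compared arrays alone leave the estimate unchanged. So does leaving out an array outside the comparison. The 755 is therefore no measure of how stable the directions are. With the replicate number as a block, all 44 kept their direction and call (CIN2 for sugar in air -2.02, limma adjusted p = 0.00345). The treat test, which asks for a difference beyond 1, ended 5 calls: CIN2 for sugar in air (-2.02) and both interactions (2.14 with DNP, 2.47 under AC), and CINV1 for DNP on glucose (-1.17) and AC on mannitol (-1.61). The other changes with all arrays were those given for CINV1 after quantile re-normalization (-0.91), with trend and robust (1.31 and 1.43) and without dim probes (1.43), and for CIN2 with compared arrays alone (2.14). Leaving out 1 array assumes that the lone array varies like the others. It gave ranges with a changed call or sign for CIN2 of -0.049 to 0.29 (sugar with DNP), -0.27 to 0.065 (DNP on glucose), 1.74 to 2.53 and 2.07 to 2.87 (interactions with DNP and AC); for CINV1 of -1.35 to -0.99 (DNP on glucose) and 0.80 to 1.17 (AC over DNP on glucose); for CIN3 of -0.28 to 0.25 (sugar in air), 0.71 to 1.24 (DNP on glucose) and -0.13 to 0.41 (interaction with AC); and for CIN5 of -0.66 to 0.33 (sugar with DNP), -0.10 to 0.12 (sugar under AC), -0.06 to 0.96 (DNP on glucose), -0.34 to 0.69 (AC on glucose) and -0.95 to 0.047 (AC over DNP on mannitol).

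Counts over all probe sets moved more. With treat and as reported they were 145 and 733 (sugar in air), 0 and 5 (sugar with DNP), 0 and 975 (sugar under AC), 1238 and 5113 (DNP on glucose), 1268 and 5983 (DNP on mannitol), 227 and 1925 (AC on glucose), 877 and 4475 (AC on mannitol), 176 and 1929 and 91 and 750 (AC over DNP on glucose and on mannitol), 78 and 435 (interaction with DNP) and 17 and 423 (interaction with AC). With compared arrays alone they were 464, 0 and 255 for sugar in air, with DNP and under AC and 116 for AC over DNP on mannitol. The interaction with AC gave 236 after quantile re-normalization and 707 with trend and robust, and sugar with DNP gave 2 with the block. Leaving out 1 array gave 414 to 746 (sugar in air), 0 to 21 (sugar with DNP), 295 to 1071 (sugar under AC), 1218 to 1965 (AC on glucose), 1216 to 2019 and 389 to 734 (AC over DNP on glucose and on mannitol), 241 to 405 and 72 to 403 (interactions with DNP and AC). The cause was not tested.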

Other observations

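For AC over DNP, 2 of 7 sucrose synthase genes were called higher on glucose (list median -0.02) and 1 on mannitol (0.11), against 5.26% and 2.05% of all probe sets called in either direction. SUS2 averaged 5.06 ± 0.07 in GlcAC and 2.56 ± 0.11 in GlcDNP (SD, n = 2 arrays each), a log2 difference of 2.49 ± 0.18 (limma adjusted p = 5.34e-05). On mannitol it averaged 4.12 ± 0.04 in MtlAC and 1.87 ± 0.14 in MtlDNP, a difference of 2.25 ± 0.18 (limma adjusted p = 1.41e-04). SUS1 was higher on glucose by 1.24 ± 0.19 (limma adjusted p = 0.00379). CINV1, which was not called, differed in the same direction, by 0.98 on glucose and 0.87 on mannitol. Whether the sucrose synthase differences exceed those of the invertase genes was not tested.

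CSLA9 and HAK10, the named genes most like CIN2 over the 12 arrays, lie on chromosome 6 of the RefSeq assembly with 1 annotated gene between their starts, while CIN2 is on chromosome 4. This was noticed after their values were seen.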
